A study of Hipposideros armiger with 2 samples.

Results

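The collagen family was described in RNA libraries, labelled as liver, of the great Himalayan leaf-nosed bat (Hipposideros armiger). Members were all assembled genes whose protein name, taken from the authors' tables, is COL, a type number, A and a chain number. This name rule found 91 of 55378 assembled genes, under 29 of 12783 distinct names: 8 fibrillar collagens, 6 type IV chains of basement membranes and 15 others. Both libraries belong to 1 group, CW, named for the cave where the wild bats were netted. Both are labelled as wild-type liver with heavy metals exposure; replicate 2 is also labelled as an adult male, and the design text speaks of adult males throughout. No label ties a library to a particular animal, and no unexposed or other-cave group was analysed here. Every difference below is between 1 library and 1 library, so it has no p-value, and the spread between them may be technical.

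Collagens are the main structural proteins of the extracellular matrix. Each molecule is a trimer of chains wound into a helix, built in the endoplasmic reticulum with the help of prolyl and lysyl hydroxylases and chaperones, and secreted. Fibrillar collagens form the rope-like fibrils of connective tissue, type IV collagens form the sheet of basement membranes, and the remaining types coat fibrils, form beaded filaments, anchor epithelia or span the cell membrane. In liver, scarring is known as the deposition of fibrillar collagen by activated stellate cells and fibroblasts.

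The libraries held 18741210 and 18778331 expected counts. Their liver label was checked against marker genes. All 8 hepatocyte markers were detected, but their summed level was 10480 TPM (transcripts per 1e+06, a level corrected for length and depth) in replicate 1 and 284 TPM in replicate 2. All 6 alveolar type II markers of lung were detected as well, with sums of 3496 and 5502 TPM. Both libraries thus carry lung markers under a liver label. Replicate 2 carries far fewer hepatocyte transcripts than replicate 1, and its alveolar type II sum is far above its hepatocyte sum. Fibroblast and stellate markers summed to 523 and 615 TPM, smooth muscle markers to 696 and 951 TPM, and endothelial markers to 149 and 212 TPM. LRAT, which marks quiescent stellate cells, had 0 and 2 counts. In bulk tissue, fewer cells of a type and less RNA per cell cannot be told apart.

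Summed over all names, collagens reached 451 TPM in replicate 1 against 548 TPM in replicate 2 (499 ± 68.7, SD, n = 2). Their share of the counts was 0.0739% (95% Wilson limits 0.0727% and 0.0751%) and 0.0807% (0.0794% and 0.0820%), respectively. Such limits cover the counting error within each library alone. No molecular identifiers are described for these reads, so the limits may be too narrow. Of the summed TPM, fibrillar collagens held 36.1 ± 1.69%, type IV chains 13.0 ± 1.47% and the others 50.9 ± 3.17%. On the same scale 14 of the 29 names reached a mean of 10 TPM and 5 reached 30 TPM. COL11A2, with 2 counts in replicate 1, was the 1 name with a library below 3 counts, the floor used here for detection.

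**Figure D1:**
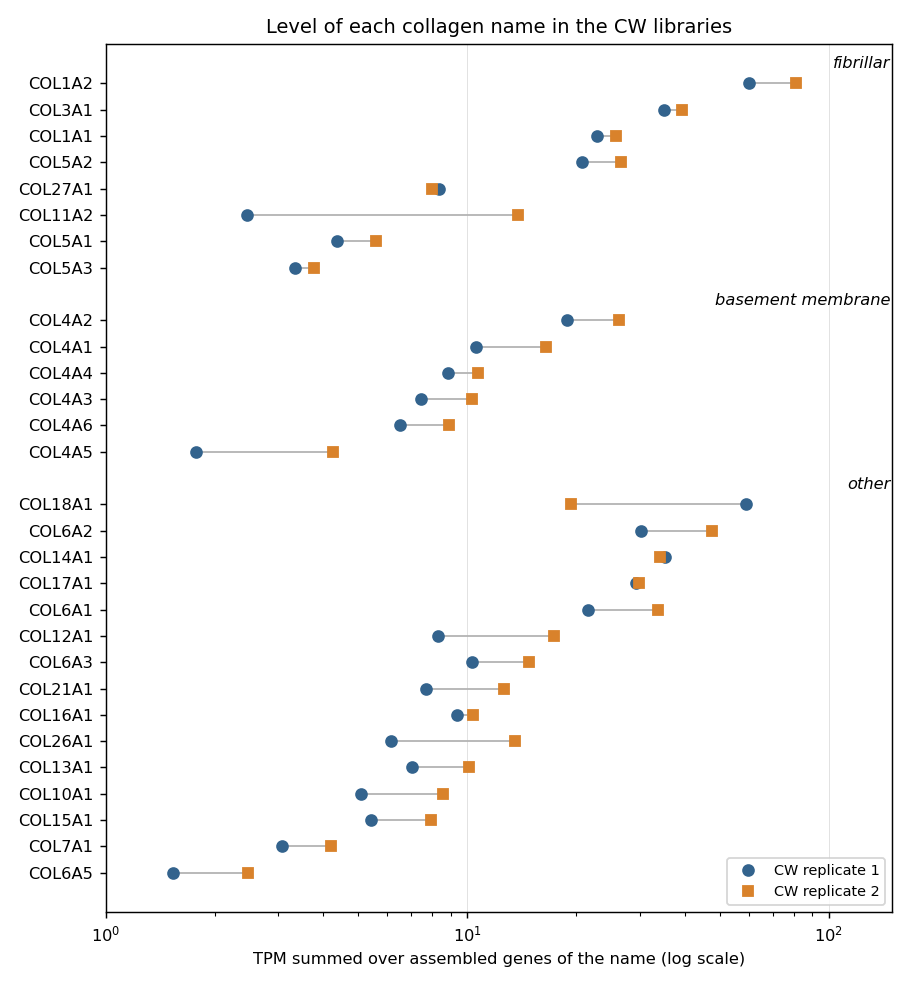
Summed TPM of each of the 29 collagen names (log axis) in CW replicate 1 (circles) and replicate 2 (squares), grouped by class and ordered by mean; a grey line joins the libraries. COL18A1 goes from 59.2 TPM down to 19.4 TPM, while 26 of 29 names lie further right in replicate 2.

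Fibrillar collagens were led by the type I and type III chains. COL1A2, the α2 chain of type I collagen, the main fibril-forming collagen of skin, bone and scar, measured 60.1 TPM in replicate 1 against 81.2 TPM in replicate 2. COL1A1, its α1 partner chain, was at 22.9 and 25.7 TPM. COL3A1, which forms the fine reticular fibres of soft organs, was at 35.0 and 39.4 TPM. In these 3 genes replicate 2 was the higher library on the TPM scale. Over the tested names with a TPM above 0 in both libraries, the median ratio of TPM + 1 was likewise 1.26 in favour of replicate 2, so a gap of this size is common on that scale.

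The minor fibrillar chains followed. COL5A2 and COL5A1, chains of type V collagen, which nucleates type I fibrils and limits their width, were at 20.7 and 26.6 TPM, and at 4.35 and 5.59 TPM. COL5A3, another type V chain, had only 5 counts in each library (3.33 and 3.76 TPM). COL27A1, a fibrillar collagen best known from cartilage, was at 8.34 and 8.01 TPM, one of 3 collagen names that were not higher in replicate 2. COL11A2 was at 2.46 and 13.8 TPM, but from 2 and 10 counts. Its scaled log2 ratio of 2.05 has a 95% counting interval from -0.18 to 5.28, so no difference was detectable at this depth.

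All 6 type IV chains were present. COL4A1 and COL4A2, whose trimer is the common network of nearly all basement membranes, were at 10.6 and 16.5 TPM, and at 18.9 and 26.4 TPM. COL4A3 and COL4A4, partners with COL4A5 in the network of the kidney glomerulus and the lung alveolus, were at 7.43 and 10.3 TPM, and at 8.82 and 10.7 TPM. COL4A5 itself was the lowest type IV chain, at 1.78 and 4.26 TPM from 18 and 38.1 counts. COL4A6, which pairs with COL4A5 under smooth muscle and some epithelia, was at 6.5 and 8.92 TPM. Of 4 glomerulus markers only PODXL, which endothelium also makes, matched a name (5.52 and 9 TPM), whereas alveolar type I markers summed to 670 and 1054 TPM. HOPX, in that list, was at 0 in both libraries. Whether those cells carry the COL4A3 and COL4A4 reads was not tested.

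Type VI chains, which form beaded microfilaments around cells, had the highest mean sum among the subclasses of the other collagens (81.1 ± 24.8 TPM). COL6A2 was at 30.2 and 47.6 TPM, COL6A1 at 21.5 and 33.7 TPM, and COL6A3 at 10.3 and 14.8 TPM. COL6A5, which can take the place of COL6A3, had the lowest summed TPM of all collagen names, at 1.53 and 2.47 TPM. Its 33 and 42 counts were more than those of COL5A3 or COL11A2. The 4 names summed to 63.5 and 98.6 TPM; in replicate 1 the multiplexins described below reached 64.6 TPM.

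Fibril-associated collagens with interrupted helices, which decorate the surface of fibrils, summed to 60.6 and 74.4 TPM. COL14A1 was at 35.2 and 34.1 TPM, COL12A1 at 8.32 and 17.3, COL21A1, found in vessel walls, at 7.69 and 12.7, and COL16A1 at 9.36 and 10.4. Most of the COL12A1 gap in TPM comes from a piece of 255 bases with 3 and 11 counts (2.27 and 9.37 TPM). The main COL12A1 piece of 11211 bases had 748 and 781 counts (6.05 and 7.95 TPM), and the summed counts were 751 and 792.

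Epithelial and membrane collagens were measured too. COL17A1, a transmembrane collagen of the hemidesmosomes that fix basal epithelial cells to their basement membrane, was at 29.3 and 29.9 TPM. COL7A1, the collagen of the anchoring fibrils below that membrane, was at 3.07 and 4.19 TPM, and COL13A1, a transmembrane collagen of cell adhesion sites, at 7.04 and 10.1 TPM. Basal epithelial markers were present with all 5 members, at sums of 32.5 and 48.9 TPM. COL10A1, known as the collagen of hypertrophic cartilage, was at 5.09 and 8.55 TPM. Of 8 cartilage markers only COMP matched a name (4.36 and 4.31 TPM). COL26A1, an EMI domain protein, was at 6.17 and 13.5 TPM, a gap under 2-fold on scaled counts. The multiplexins, collagens whose C-terminal end can be released as endostatin or a relative of it, were COL15A1 (5.43 and 7.96 TPM) and COL18A1 (59.2 and 19.4 TPM).

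Names with no match were compared with RefSeq genes of the bat assembly ASM189008v1, used for symbols only. Of its 42 collagen symbols 28 were among the members, while COL6A5 was a member without a symbol there. The 14 without a matching row here were COL2A1, COL9A1, COL9A2, COL9A3 and COL11A1, which build cartilage fibrils, COL8A1 and COL8A2 of vessel and corneal networks, COL6A6, COL20A1, COL22A1, COL23A1, COL24A1, COL25A1 and COL28A1. They were not analysed here.

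How the transcripts were assembled bears on every level above. The 91 assembled genes ran from 213 to 11211 bases with a median of 503, and 45 were under 500 bases, far shorter than the coding sequence of a collagen chain. Only 9 of 29 names had a single assembled gene; COL14A1 and COL18A1 had 9 each and COL6A2 had 8. Each piece of a transcript adds its own TPM, so a summed TPM grows with the number of pieces. As a second measure, counts summed per name were divided by the summed listed length and scaled, like TPM, to the same total in each library. By that measure COL14A1, rank 5 of 29 by summed TPM, was at rank 27, with 2.13 ± 0.0731. COL6A2 (16.6 ± 3.12), COL6A1 (16.4 ± 3.67) and COL4A2 (15.7 ± 3.60) then led. COL1A1 (15.3 ± 1.51), COL4A1 (15.1 ± 1.66) and COL1A2 (14.2 ± 2.40) followed. Their SDs overlap, but all of these names were higher in replicate 2, and the SDs include that shared rise. Within each library COL6A2 was above COL4A2, COL1A1, COL4A1 and COL1A2. COL6A1 was below COL6A2 in replicate 1 (13.8 against 14.4) and above it in replicate 2 (19.0 against 18.8). Type IV chains held 25.4% of the collagen sum by this measure and fibrillar collagens 26.8%, against 13.0% and 36.1% of the summed TPM.

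Protein domains listed by the authors show which parts of the chains were assembled; 26 of the 91 pieces have none. The fibrillar collagen C-terminal domain, which starts trimer assembly, was listed for 16 pieces of all 8 fibrillar names. The type IV C-terminal domain was listed for 7 pieces, with at least 1 for each of the 6 chains. Von Willebrand factor A domains were listed for 21 pieces, of COL6A1, COL6A2, COL6A3, COL6A5, COL12A1 and COL14A1. An endostatin domain was listed for 6 pieces, all of COL15A1 and COL18A1. The names came from matches to human (58 pieces), mouse (20), cattle (8), dog (4) and a hamster (1) protein, and the species of a best match is no evidence of the origin of the RNA.

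Chains that share a trimer were then compared within each library. Type I collagen has more α1 than α2 chains in its common trimer, and type IV collagen of COL4A1 and COL4A2 likewise. By summed TPM, COL1A1 was at 0.381 times COL1A2 in replicate 1 and 0.317 times in replicate 2; by counts per length the same ratio was 1.14 and 1.03. A COL1A2 piece of 701 bases had 32.7 and 49.2 TPM from 338 and 454 counts, more TPM than its other pieces together. COL4A1 was at 0.558 and 0.627 times COL4A2 by summed TPM, and at 1.06 and 0.895 times by counts per length. COL6A1 was at 0.712 and 0.708 times COL6A2, and at 0.962 and 1.01 times by the second measure. For these 3 pairs an excess of the second chain thus appears by summed TPM and not, or hardly, by counts per length. COL5A1 was at 0.210 times COL5A2 in both libraries by summed TPM and at 0.787 and 0.851 times by counts per length. COL4A3 was below COL4A4 by both measures, at 0.842 and 0.959 times and at 0.747 and 0.819 times. In contrast, COL6A1 exceeded COL6A3 by 2.09 and 2.28 times in summed TPM and by 2.31 and 2.53 times in counts per length. COL4A5 was at 0.274 and 0.478 times COL4A6 by summed TPM and at 0.184 and 0.320 times by counts per length. However, COL4A5 rests on 1 piece of 681 bases with 18 and 38.1 counts. These are RNA levels, and no chain ratio of the protein was measured.

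**Figure D2:**
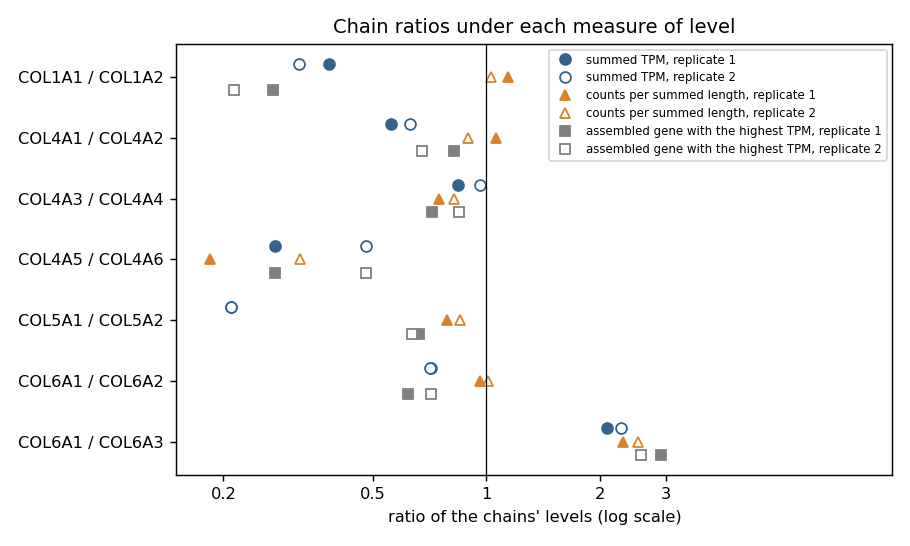
Ratio of the levels of 2 chains of 1 collagen type (log axis; the line marks equality) by summed TPM, counts per summed length, and the assembled gene with the highest TPM, with filled marks for replicate 1 and open marks for replicate 2. For COL1A1 over COL1A2 the marks run from 0.213 to 1.14 depending on the measure, whereas COL6A1 over COL6A3 stays above 2 in each.

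Among the tested collagen names, the libraries differed most in scaled counts of COL18A1, the chain of type XVIII collagen, a basement membrane proteoglycan that hepatocytes are known to express. It had 1270 counts in replicate 1 and 186 in replicate 2. After TMM scaling, which corrects for the make-up of the libraries, this is 8.27-fold lower in replicate 2, a log2 ratio of -3.05 with a 95% counting interval from -3.28 to -2.82. On the log2(CPM + 1) scale, less the median of all names, it was -2.90, rank 209 from the lowest among 11290 names. By summed TPM the drop is smaller, from 59.2 to 19.4 TPM, where 6 short pieces of few counts weigh more.

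Of 27 collagen names with a mean of at least 1 CPM (counts per 1e+06 library counts), 1 name, COL18A1, was lower in replicate 2 by over 2-fold, and 0 were higher by as much. Among all names tested, 5.16% were lower and 0.0266% higher by over 2-fold, so 1 of 27 is near the background share. The collagen names had a median log2 ratio of 0.01, against 0 for all names by construction; 17 of 27 lay between the 25th and 75th percentiles of all names (-0.17 and 0.13), 5 above and 5 below. Without COL18A1, the other 26 ran from -0.52 to 0.73. COL11A2 and COL5A3 fell under the CPM filter.

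**Figure D3:**
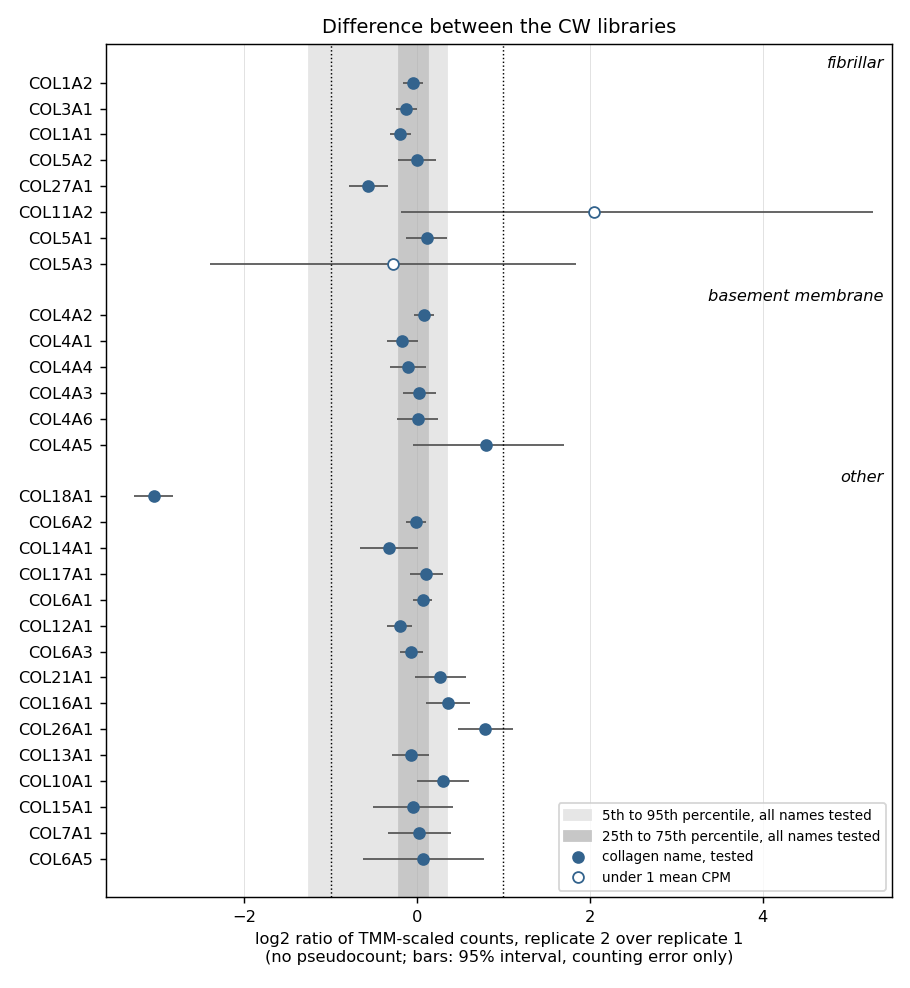
Log2 ratio of TMM-scaled counts of each collagen name, replicate 2 over replicate 1, with 95% intervals for counting error only; grey bands hold the middle of all names tested, dotted lines mark 2-fold, and open circles are under 1 mean CPM. COL18A1 stands at -3.05, and COL26A1 is the highest tested name apart from COL4A5, whose interval is wide.

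Besides COL18A1, the counting intervals of 6 of the 29 names leave out 0, the point of equal scaled counts with no median removed. The intervals are not adjusted for the number of names. COL26A1 had 124 and 259 counts, a log2 ratio of 0.79 (interval 0.47 to 1.11). On the log2(CPM + 1) scale, less the median, it was 0.73, rank 11270 from the lowest among 11290 names. COL16A1 had 214 and 333 counts, at 0.36 (0.11 to 0.62). COL27A1 had 364 and 298 counts, at -0.56 (-0.79 to -0.34), and COL1A1 had 1071 and 1135 counts, at -0.19 (-0.31 to -0.07). COL12A1 was at -0.20 (-0.35 to -0.05), and COL3A1 was at the edge, at -0.12 (-0.25 to -0.0017). The interval of COL10A1, at 0.30 (-0.0024 to 0.60), just includes 0. Each of these is a gap under 2-fold between single libraries, though the interval of COL26A1 reaches past 2-fold. The robust SD over all names was 0.22 on the log2(CPM + 1) scale. Besides COL1A1, the chains highest by counts per length were COL1A2 at -0.05, COL4A1 at -0.17, COL4A2 at 0.08, COL6A1 at 0.07 and COL6A2 at -0.01. Their intervals include 0, that of COL4A1 narrowly (upper limit 0.0084). These 5 chains, and COL1A1 and COL3A1 above, differed by well under 2-fold between the libraries. Whether hepatocyte transcripts bear on these ratios was not tested.

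The COL18A1 difference was followed into its 9 assembled genes. The longest, of 4688 bases with an endostatin domain, had 1154.5 and 159 counts and held 90.9% and 85.5% of the name's counts. A piece of 492 bases with a laminin G domain had 47 and 0 counts, at least 19.0-fold lower against the floor of 3 counts. A piece of 287 bases with an endostatin domain had 29.3 and 0 counts, at least 11.7-fold lower. The other 6 pieces, grouped after their values were seen, had 39 and 27 counts together, a scaled log2 ratio of -0.81. They include an endostatin piece of 343 bases (12 and 8 counts) and a laminin G piece of 321 bases (10.45 and 8 counts). Both of these were also lower in replicate 2 after scaling, by 1.82-fold and 1.51-fold. The low counts leave wide counting error on the short pieces.

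**Figure D4:**
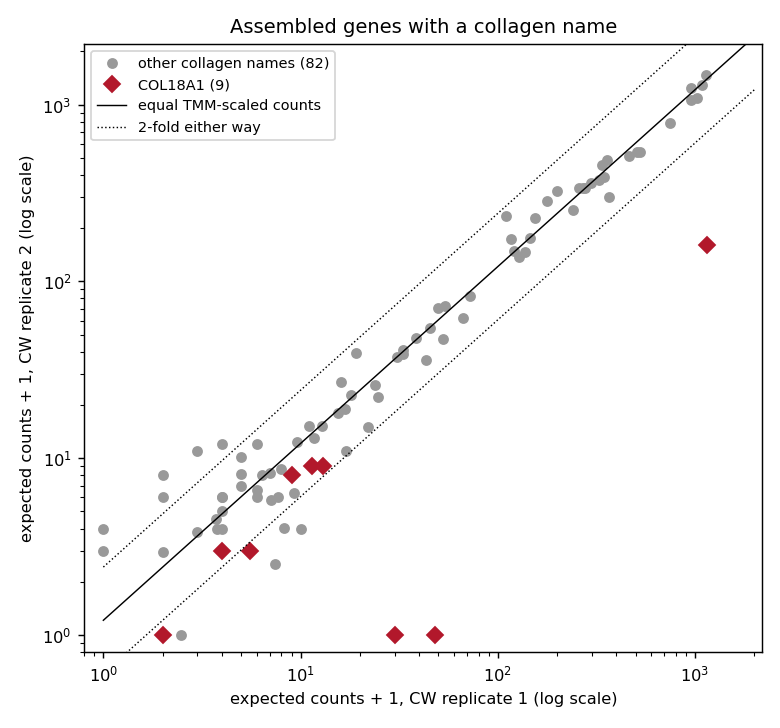
Expected counts + 1 of the 91 assembled genes with a collagen name in CW replicate 1 and replicate 2 (log axes); diamonds are the 9 pieces of COL18A1, the solid line marks equal TMM-scaled counts and dotted lines 2-fold. The COL18A1 pieces with 1154.5 and 159, 47 and 0, and 29.3 and 0 counts lie far below the line, and pieces with many counts of other names lie close to it.

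Over all pieces, 46 of 91 had a mean of at least 1 CPM. A gap of over 2-fold with replicate 2 lower was found for 2, both of COL18A1, and in the other direction for 0. Among all 22025 assembled genes tested, the shares were 6.81% and 0.0999%. The hepatocyte markers moved with COL18A1: all 8 passed 2-fold in the same direction, at a median log2 ratio of -4.82, and none was at 0. ALB, the main plasma protein, had 83468 and 2592 counts. The part of hepatocyte transcripts in the COL18A1 difference was not tested.

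Genes that make, process, bind or degrade collagen were read from 8 lists. Of 109 tested members 5 passed 2-fold with replicate 2 lower and 0 with replicate 2 higher, close to the background share of 5.16%, but 4 of these 5 were in 1 list, the collagen-like domain proteins. Among the genes of chain modification and folding, 0 of 20 tested were over 2-fold apart, with a median log2 ratio of -0.05. PPIB, a prolyl isomerase of procollagen, was at 380 and 556 TPM, and P4HB, the β subunit of prolyl 4-hydroxylase, at 289 and 170 TPM from nearly equal counts (7478 and 7367). CRTAP, of the prolyl 3-hydroxylase complex, was at 27.1 and 37.9 TPM, and SERPINH1, the collagen chaperone HSP47, at 31.4 and 32.6 TPM.

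Propeptide cleavage genes had the lowest list median, -0.26, with all 5 below 0 and 0 past 2-fold. BMP1, which trims the C-propeptide of fibrillar collagens, was at 27.5 and 35.2 TPM. FURIN, a convertase that activates such proteases, was at 36.3 and 21.5 TPM, PCOLCE, which enhances BMP1, at 16.6 and 23.1, and ADAMTS2, which removes N-propeptides, at 7.88 and 7.33.

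Fibril-associated proteins had a median of 0.10 over 11 tested members. DCN, a proteoglycan on type I fibrils, was at 249 and 240 TPM, SPARC, a collagen-binding matrix protein, at 120 and 151, FN1, fibronectin, at 146 and 110, and DPT, dermatopontin, at 32.4 and 53.8. BGN, biglycan, was the 1 member over 2-fold lower, with 1458 and 831 counts and a log2 ratio of -1.05; with library size scaling it was -0.80, short of 2-fold. Basement membrane partners, which include laminins, nidogen and heparan sulphate proteoglycans, had a median of 0.12 over 14 tested members, 13 above 0 and 0 past 2-fold. The laminin chains LAMB2 (70.0 and 103 TPM), LAMA3 (62.4 and 97.4), LAMB1 (39.0 and 61.9) and LAMB3 (42.9 and 54.9) had the highest means. HSPG2, perlecan, was close behind in summed TPM (41.6 and 55.7), but from 431 and 528 counts over 8 pieces. LAMB3 had 1517 and 1855 counts over 2 pieces.

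Of collagen receptors 8 were tested and 0 passed 2-fold, with a median of -0.05. DDR1, a receptor tyrosine kinase for collagen in epithelia, was at 82.0 and 136 TPM. ITGB1, the β chain of collagen-binding integrins, was at 57.4 and 70.0 TPM. ITGA11, an α chain for fibrillar collagen, was at 26.7 and 24.8 TPM, but from 47 and 53 counts over 5 pieces. MRC2, an endocytic collagen receptor, was at 12.1 and 13.8 TPM, from 392 and 437 counts over 3 pieces. By counts MRC2 is thus above ITGA11. Collagen-degrading enzymes and their inhibitors had a median of -0.01 over 12 tested members, with 0 past 2-fold. The inhibitors TIMP1 (83.2 and 117 TPM), TIMP3 (50.8 and 85.4) and TIMP2 (49.5 and 56.2) stood above the membrane protease MMP14 (23.3 and 35.4) in each library. Profibrotic signalling genes had a median of 0.08 over 17 tested members, with 0 past 2-fold. CTGF, a matrix growth factor, was at 86.3 and 124 TPM, TGFBR2, a TGF-β receptor, at 58.1 and 88.2, and PDGFRB, the PDGF receptor of pericytes and fibroblasts, at 28.0 and 33.2.

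Of the 22 tested proteins with a collagen-like domain, 4 were over 2-fold lower, a larger share than the 5.16% of all names. COLEC10 and COLEC11, both collectins, had 430 and 17 counts, and 823 and 107 counts, with log2 ratios of -3.83 and -2.98. FCN2, a ficolin, had 115 and 16.7 counts (-2.07), and MARCO, a macrophage scavenger receptor, 366 and 22 counts (-3.43). The median of that list was -0.08. The lung collectin SFTPA1 was at 358 and 547 TPM, and the complement chains C1QC and C1QA at 91.6 and 129 TPM and at 70.3 and 96.0 TPM. Unlike COLEC10 and COLEC11, the mannose-binding lectin MBL2 was not lower in replicate 2. It was at 77.0 and 116 TPM, from 2581 and 3478 counts (log2 ratio 0.17). ADIPOQ was the highest, with 35 and 93.0 counts and a log2 ratio of 0.86; it passed 2-fold with library size scaling, at 1.05.

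**Figure D5:**
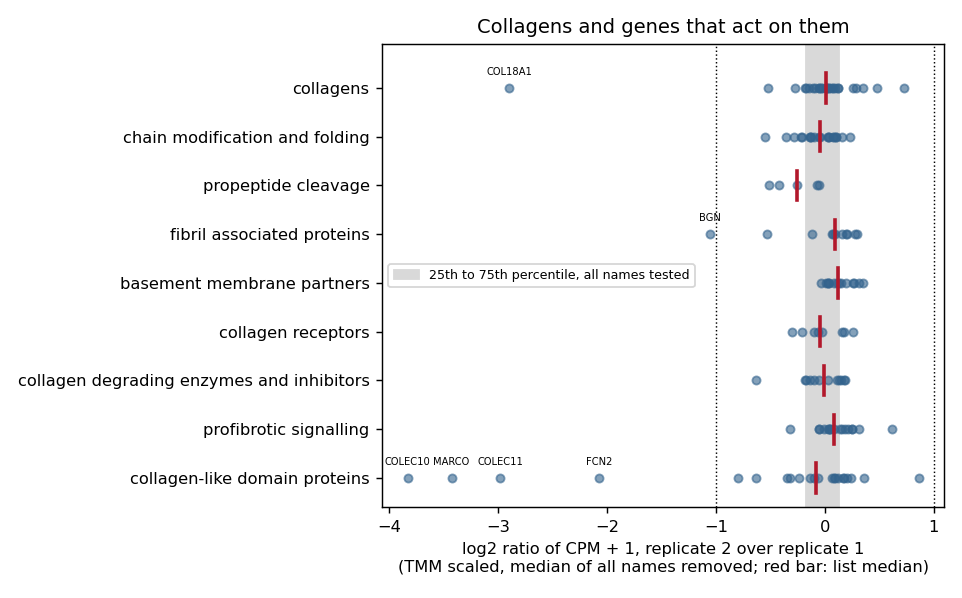
Log2 ratio of CPM + 1, replicate 2 over replicate 1, for each tested collagen and each tested member of the 8 lists (points), with list medians (red bars); the grey band is the middle 50% of all names and dotted lines mark 2-fold. COL18A1, BGN, COLEC10, COLEC11, FCN2 and MARCO lie to the left of the lower line, and medians lie between -0.26 and 0.12.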

How the data were processed

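RNA-seq tables of both CW libraries were analysed. Per the labels, poly(A) RNA was sequenced; per the submitters' processing notes, reads were trimmed with cutadapt 1.9, and mm10 is named for replicate 1 with no role. The assembler and quantifier are not given in the sources used here; gene identifiers follow Trinity. The deposited expected counts are estimates; they were rounded to whole numbers for scaling and ratios. The deposited level column was read as TPM made by the authors, because it summed to 996837 and 996239; its header names no unit. The length by which the authors divided is not given either, so counts over the listed length need not equal it.

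Values were summed by upper-cased name. Library totals were scaled with TMM factors (edgeR 4.0.16, R 4.3.3), CPM + 1 was log2-transformed, and the median over names with a mean of at least 1 CPM was removed; ratios past 2-fold were counted. The pseudocount understates changes of low genes. Counting intervals of ratios are exact binomial. The procedure was checked on simulated counts of assembled genes, with as many rises as falls put in. That check does not cover summed names, nor libraries in which most large differences go the same way, as here. Scripts ran on Python 3.11.15 with scipy 1.17.1, matplotlib 3.10.9, pandas 2.3.3 and numpy 2.4.6.

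Members and lists were chosen with earlier results of these data known. Every collagen name is accounted for; from other lists, up to 4 highest members and those past 2-fold are named, plus some markers; 1 list member is not reported here. The lists hold older symbols as aliases. Alternatives were other scalings (including DESeq2 1.42.0), filters, pseudocounts, measures of level and leaving out each replicate. Bone and skeletal muscle markers summed to 15.9 and 6.91 TPM and to 104 and 75.6 TPM. Sequences are not shown.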

Additional observations from a re-analysis of the deposited data

How the results depend on the processing

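The collagen sum of 499 TPM became 271 with only the highest assembled gene of each name and 256 by counts per summed length; it ranged from 451 to 548 without each replicate in turn. Fibrillar collagens held 26.8% by counts per length. Type IV chains held 17.8% with the highest assembled gene, 25.4% by counts per length and 22.7% with types XV and XVIII added, and the others 47.3% with the highest assembled gene and 41.2% with those types moved. Without each replicate in turn the shares were 34.9% to 37.3%, 11.99% to 14.1% and 48.7% to 53.1%. With the highest assembled gene and by counts per length, COL1A1 over COL1A2 was 0.242 and 1.08, COL4A1 over COL4A2 0.746 and 0.979, COL6A1 over COL6A2 0.665 and 0.987, and COL6A1 over COL6A3 2.74 and 2.42. Without each replicate these ratios were 0.317 to 0.381, 0.558 to 0.627, 0.708 to 0.712 and 2.09 to 2.28.

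The count of collagen names past 2-fold was 1 in the main setting and under 5 alternatives. It was 2 with summed TPM, where COL11A2 joins, and 0 with the highest assembled gene, an alternative chosen after seeing the data, where the COL18A1 piece of 287 bases falls under the filter. The median log2 ratio was 0.26 under library size scaling, where all names together had 0.24. COL18A1 stayed between -3.02 and -1.90 wherever it passed the filter. No paired analysis was possible because both libraries are of 1 group. Depth limits COL11A2, COL5A3 and the short pieces; the spread between animals of each ratio is unknown.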
